A study of Rattus norvegicus with 16 samples.

Results

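Pigment cells of the skin, the melanocytes, arise from the neural crest and sit in the hair follicle and epidermis. They make melanin in melanosomes and hand it to the growing hair shaft. The 10 genes considered here encode the melanin enzymes (Tyr, Dct and Tyrp1), proteins of the melanosome (Pmel, Mlana, Slc45a2 and Oca2), the lineage factor Mitf, and the receptors Kit and Mc1r. They were selected with the measured levels of these arrays in view, because the levels appeared to fall into a high and a low set of arrays regardless of denervation. That division is therefore given as a description, with no test. Of the 10 genes, 7 had a probeset naming only that gene, among 14217 genes measured. Slc45a2, Mc1r and Oca2 had none and were not analysed here.

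The arrays held dorsal hairy skin of the T9/10 dermatome from adult female Sprague-Dawley rats, with 1 array per rat. The naïve group held 6 rats without surgery. The other groups held 5 rats each, taken 7 or 14 days after the cutaneous nerves to the dermatome were cut and their stumps tied off, with the T11 nerves left intact. Sprague-Dawley is an albino strain, whose follicles hold melanocytes without melanin. The skin carried the cutaneous trunci muscle, which was not itself denervated, and 19 sarcomere genes had mean levels of 10.87 to 12.53 over the arrays. All levels are log2 values, so a difference of 1 is a doubling of the signal. As a reading of the background, 24 genes of other organs (liver, pancreas, testis, brain) had mean levels of 3.64 to 7.06 with a median of 4.91.

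The naïve arrays differed most among themselves. The lowest correlation of an array with another of its group was 0.931 in naïve skin, 0.977 at 7 days and 0.993 at 14 days. In 11 genes of the hair shaft and its sheath, naïve replicates 1 and 2 had mean levels of 11.23 and 11.38, whereas naïve replicates 3 to 6 lay between 6.32 and 6.56. The 3' minus middle signal of beta-actin, a reading of RNA quality, was 0.52 to 1.20 in naïve replicates 3 to 6 and 0.0452 to 0.290 on the other arrays. In whole skin, fewer cells of a type and less RNA per cell cannot be told apart.

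Mitf is a basic helix-loop-helix factor known to bind an E-box flanked by T, the M-box, in the promoters of the melanin genes. The stretches below come from the RefSeq promoter windows of the GRCr8 assembly, which matched all 7 measured genes, and are shown because 4 of the genes hold the M-box letters in the 250 bases before the start. Capitals mark TCATGTG, or its reverse CACATGA in Mlana, and each line runs 5′ to 3′ on the strand of the gene. The Tyr stretch is chr1:150622932-150623038 (minus strand), the Dct stretch chr15:101508121-101508227 (minus strand), the Tyrp1 stretch chr5:100326997-100327103 (plus strand) and the Mlana stretch chr1:236882825-236882917 (plus strand).
Tyr: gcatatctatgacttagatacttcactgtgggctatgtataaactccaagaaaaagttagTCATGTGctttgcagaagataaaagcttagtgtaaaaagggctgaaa
Dct: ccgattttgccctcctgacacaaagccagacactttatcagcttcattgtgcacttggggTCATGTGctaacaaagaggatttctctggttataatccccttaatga
Tyrp1: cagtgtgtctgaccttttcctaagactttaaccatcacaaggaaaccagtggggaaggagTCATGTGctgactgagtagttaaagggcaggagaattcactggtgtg
Mlana: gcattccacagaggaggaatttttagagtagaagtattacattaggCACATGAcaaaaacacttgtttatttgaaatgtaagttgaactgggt

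The motif began 121 bases before the start in Tyr, 138 in Dct and 68 in Tyrp1, on the strand of the gene, and 204 bases before the start in Mlana, on the opposite strand. On both strands, TCATGTG was in 3.07% of 33469 promoter windows of the same length. In Tyr, Dct and Tyrp1 the bases CT followed, and the longer run TCATGTGCT, searched after these sequences were seen, was in 0.170% of the windows. CATGTG, which lies within TCATGTG, was in the same 4 of 7 genes and in 12.1% of all windows. CACGTG was in none of the 7 and in 5.59% of all windows. None of these letters were in the windows of Pmel, Mitf and Kit. The Pmel window, 1722993 to 1723242, lies inside the gene's annotated span, and those of Mitf and Kit overlap theirs. Other possible starts of these genes were not searched, so the absence holds for these windows only. Of 50 other measured pigment genes described below, 44 had a window, and TCATGTG was in those of Gpr143, Gpnmb, Cd63 and Zeb2.

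Tyr encodes tyrosinase, the rate-limiting enzyme of melanin synthesis. Its level in naïve replicates 1 to 6 was 5.16, 7.69, 4.97, 4.84, 5.07 and 5.11. At 7 days replicates 1 to 5 stood at 5.13, 4.74, 7.54, 5.81 and 7.57, and at 14 days at 7.48, 7.59, 4.86, 7.49 and 5.18. Thus 6 arrays lay at 7.48 or above, 9 lay at 5.18 or below, and 7-day replicate 4 stood between them. The low values were at the median level of the genes of other organs. All 3 groups held both high and low arrays.

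Dct, dopachrome tautomerase, acts downstream of tyrosinase. Its naïve levels were 7.07, 10.24, 7.49, 5.73, 5.91 and 6.18, its levels at 7 days 6.69, 6.37, 10.21, 8.74 and 10.02, and its levels at 14 days 9.95, 10.11, 7.00, 9.91 and 6.79. The arrays that were high in Tyr were again the highest, and 7-day replicate 4 came next. Tyrp1, tyrosinase-related protein 1, had naïve levels of 4.70, 8.41, 5.12, 4.80, 4.69 and 4.82. It was at 4.89, 4.68, 7.71, 5.94 and 7.24 at 7 days and at 7.35, 7.91, 4.92, 7.64 and 4.77 at 14 days. Its 2 probesets had the same 6 highest arrays but differed in their order below the first and in scale: on naïve replicate 2 one read 9.70 and the other 7.11.

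Pmel encodes the fibril protein of the melanosome. Its naïve levels were 5.56, 9.83, 7.11, 5.57, 5.25 and 6.10. At 7 days it was at 6.21, 6.28, 9.30, 7.97 and 9.60, and at 14 days at 9.19, 9.56, 5.85, 9.39 and 6.20. Mlana encodes a melanosome protein that helps Pmel mature. Its levels were 5.06, 8.80, 7.45, 5.40, 4.92 and 6.53 in naïve skin, 5.90, 6.88, 8.51, 7.10 and 7.97 at 7 days, and 8.17, 8.50, 5.97, 8.14 and 5.94 at 14 days. Mlana was graded rather than split, with intermediate values on naïve replicates 3 and 6 and on 7-day replicates 2 and 4.

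Naïve replicate 2, 7-day replicates 3 and 5, and 14-day replicates 1, 2 and 4 were the 6 highest arrays in each of Tyr, Dct, Tyrp1, Pmel and Mlana. Naïve replicate 2 was the highest of all in all 5 genes. The widest gap between neighbouring arrays was 1.67 in Tyr, 1.30 in Tyrp1 and 1.22 in Pmel, each just below these 6 arrays. In Dct the widest gap, 1.25, lay below 7-day replicate 4, between 8.74 and 7.49. In Mlana it was 0.56 and had 10 arrays above it. By number, 1 of 6 naïve arrays, 2 of 5 arrays at 7 days and 3 of 5 at 14 days were among the 6 highest.

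**Figure D1:**
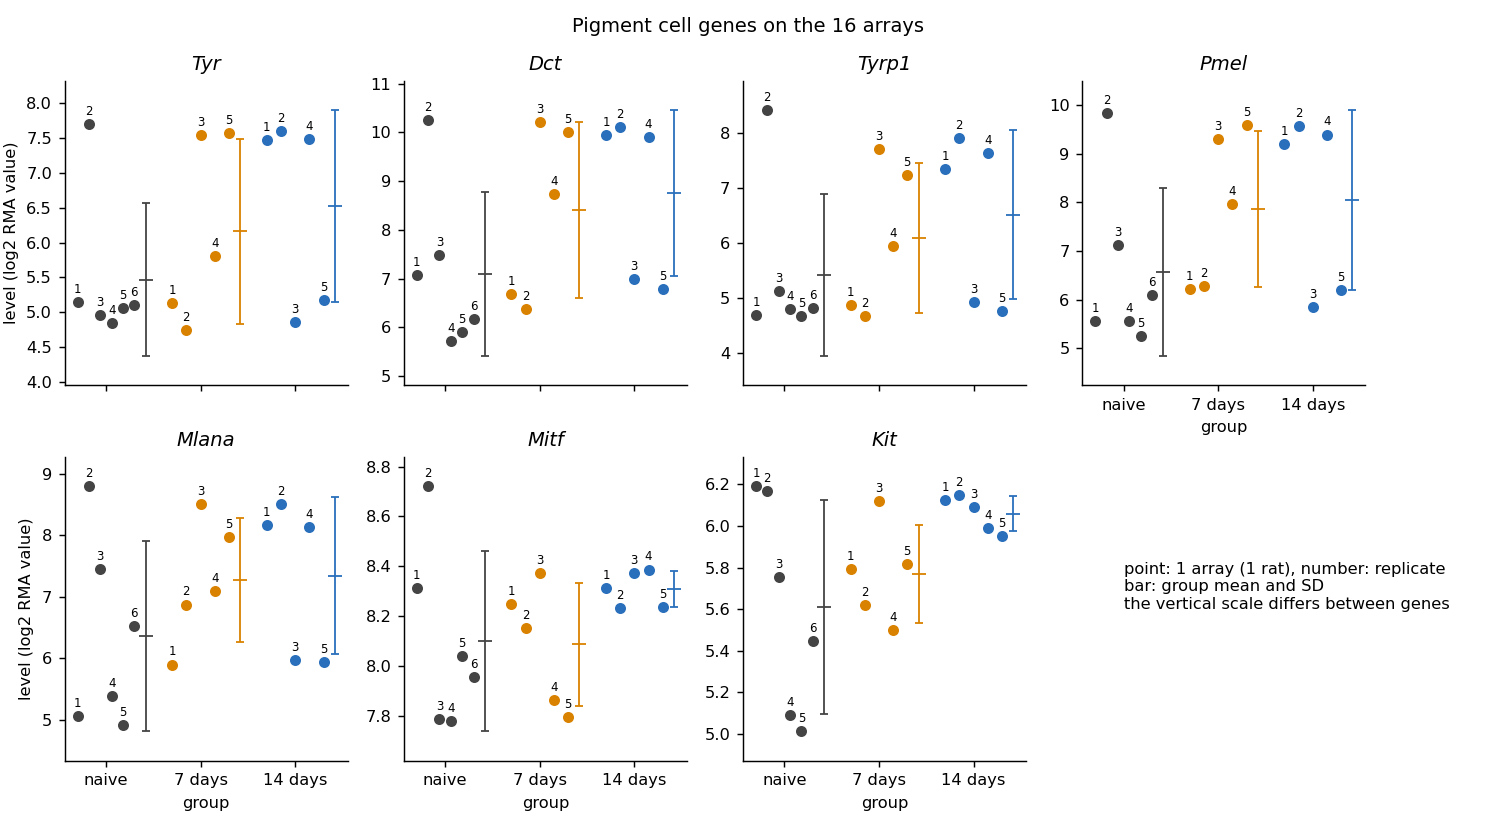
Level of each measured pigment cell gene (vertical axis, log2 value) by group, with 1 point per array, its replicate number above it, and the group mean and SD as a bar. In the 5 melanin and melanosome genes naïve replicate 2, 7-day replicates 3 and 5 and 14-day replicates 1, 2 and 4 are the highest, while Mitf spans 7.78 to 8.72 and Kit 5.01 to 6.19 without that split.

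Mitf, the factor that defines the lineage, had naïve levels of 8.31, 8.72, 7.79, 7.78, 8.04 and 7.96. At 7 days it stood at 8.25, 8.15, 8.37, 7.87 and 7.80, and at 14 days at 8.31, 8.23, 8.37, 8.39 and 8.24. Naïve replicate 2 was the highest here too, but 7-day replicate 5, among the highest in the melanin genes, was the lowest of its group. Mitf is also active in mast cells and macrophages, so its level in whole skin is not that of melanocytes alone.

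Kit, the receptor of stem cell factor in melanocytes and mast cells, had naïve levels of 6.19, 6.17, 5.76, 5.09, 5.01 and 5.45. At 7 days it stood at 5.79, 5.62, 6.12, 5.50 and 5.82, and at 14 days at 6.12, 6.15, 6.09, 5.99 and 5.95. Naïve replicates 1 and 2, the naïve arrays high in hair shaft genes and lowest in the beta-actin reading, were also the highest in Kit. Naïve replicates 4 and 5 were the lowest in Kit. All 5 arrays at 14 days lay between 5.95 and 6.15, although they held both sets of the melanin genes.

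Over the 16 arrays, the pairwise Pearson correlations among Tyr, Dct, Tyrp1, Pmel and Mlana were 0.857 to 0.982, and 0.841 to 0.980 after each group's mean was removed. Mitf correlated with these 5 genes at 0.301 to 0.443 and Kit at 0.536 to 0.644, and Mitf with Kit at 0.700. These values describe 16 arrays that fell into clusters, and the points share the array, so no p is given.

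The spread within groups was wide for the melanin and melanosome genes. The SD between arrays within groups had a median of 0.156 and a 99th percentile of 0.948 over 14217 genes. It was 1.73 for Pmel and for Dct, 1.46 for Tyrp1, 1.31 for Mlana and 1.26 for Tyr, which ranked 13, 14, 28, 42 and 50 among all genes. For Kit it was 0.348 (rank 1975) and for Mitf 0.266 (rank 3187). The genes were selected on this spread, so the ranks are a description.

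**Figure D2:**
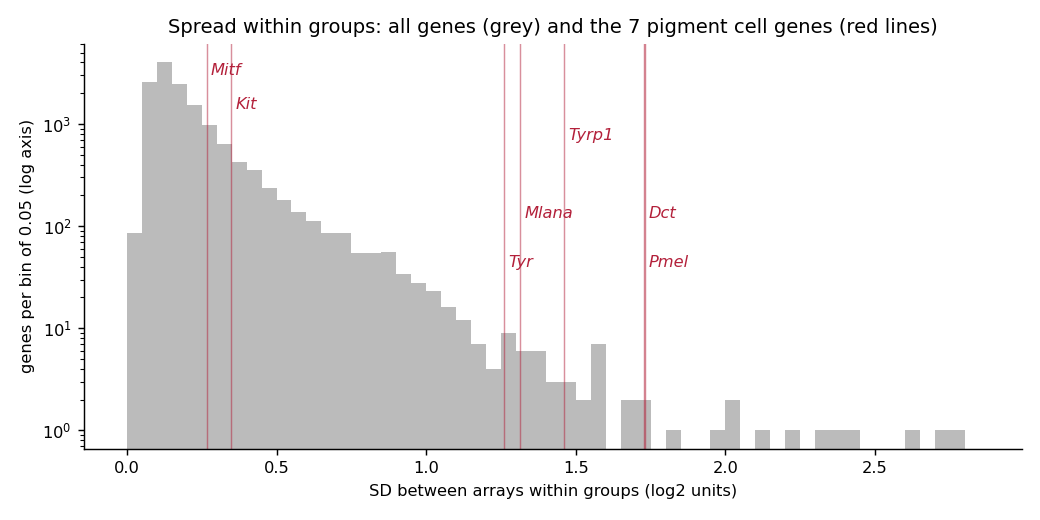
Histogram of the SD between arrays within groups (horizontal axis, log2 units) for all genes in grey, with the number of genes per bin on a log axis, and the 7 pigment cell genes as red lines. Tyr, Mlana, Tyrp1, Dct and Pmel stand at 1.26 to 1.73, beyond the 99th percentile of 0.948, while Mitf and Kit stand at 0.266 and 0.348.

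The 14-day arrays showed this most plainly, since they were otherwise the most alike. Among those 5 arrays Pmel had the largest SD of all genes, 1.85, and Dct, Tyrp1, Tyr and Mlana ranked 3, 4, 5 and 6. Rank 2 was Hbb, a hemoglobin gene, with an SD of 1.84, and ranks 7 to 10 were Gpr15lg, Ankrd1, Dbp and Cxcl1. Hbb did not share the order of the pigment genes: it was at 11.80, 9.69, 12.82, 12.02 and 8.38 on replicates 1 to 5. These 5 genes were named after their values were seen. In Gpr15lg and Dbp replicates 1 and 4 were high and replicate 2 was at 5.11 and 6.02, so the order differed from that of the pigment genes.

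The hair shaft genes did not divide the arrays in the same way. At 14 days their mean level was 11.22 to 11.36 on all 5 arrays, while the mean of the 7 pigment genes was 8.08, 8.29 and 8.14 on replicates 1, 2 and 4 and 6.15 on both replicates 3 and 5. Naïve replicate 1 and 7-day replicate 1 had hair shaft means of 11.23 and 11.05 and pigment means of 6.01 and 6.12. The 6 arrays highest in the melanin genes had hair shaft means of 10.23 to 11.38, and 7-day replicate 4 one of 9.05. Naïve replicates 3 to 6, the arrays with the higher beta-actin reading, were all among the low arrays, so within naïve skin the part of RNA quality and of hair shaft genes was not tested.

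Sarcomere genes had means of 10.87 to 11.92 on these 6 arrays and 11.06 to 12.53 on the others, which overlap. At 14 days replicates 1, 2 and 4 had sarcomere means of 10.87 to 11.10 and replicates 3 and 5 means of 11.23 and 11.25. Keratinocyte genes had means of 10.72 to 11.63 over all arrays, and the 2 arrays at 7 days with the lowest keratinocyte means, replicates 4 and 5, were intermediate and high in the pigment genes. Schwann cells, which share the neural crest origin, had marker means of 6.67 to 7.27 on all arrays. The part of these tissues in the division was not tested.

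**Figure D3:**
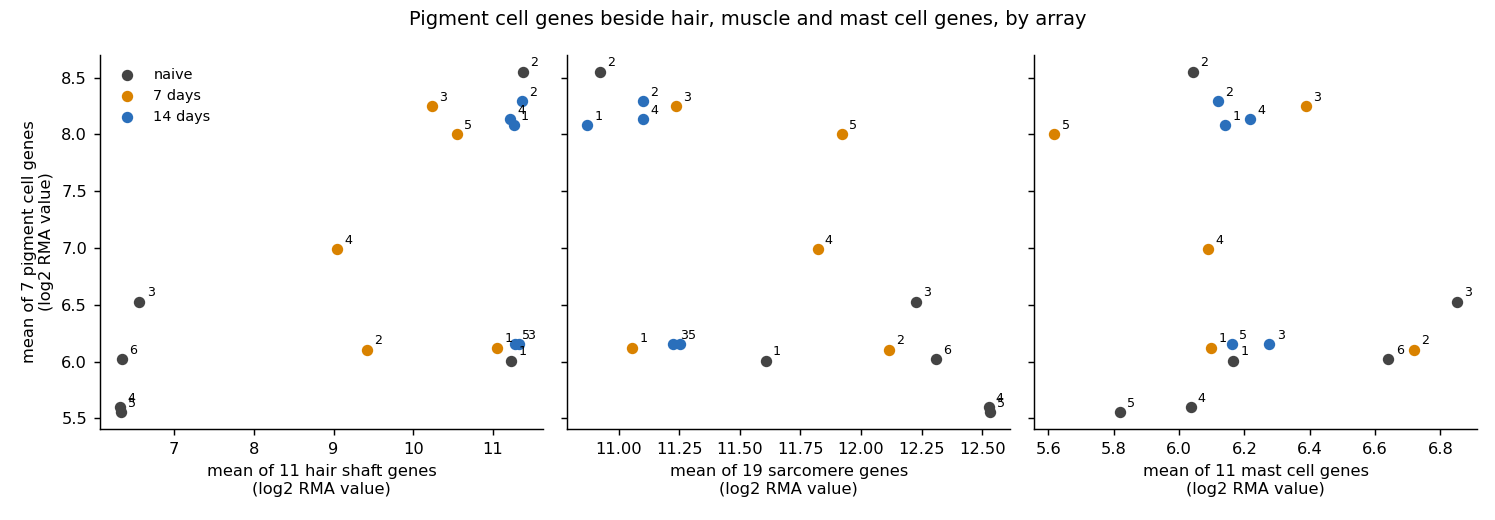
Mean level of the 7 pigment cell genes (vertical axis, log2 value) against the mean of 11 hair shaft, 19 sarcomere and 11 mast cell genes (horizontal axes, log2 value), with 1 point per array and its replicate number. The 5 arrays at 14 days share a hair shaft mean of 11.22 to 11.36 but have pigment means of 6.15 to 8.29.

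The comparisons asked whether denervated skin differed from naïve skin at each time. The genes were selected on the same levels, so the tests below give no independent support for or against an effect. At 7 days limma called 7.85% of all genes higher and 2.66% lower, and 4190 of 14217 had an unadjusted p under 0.05. None of the 7 pigment genes passed an adjusted p of 0.05 and none had an unadjusted p under 0.05. The log2 fold changes were 1.30 for Dct and for Pmel, 0.91 for Mlana, 0.69 for Tyr and 0.67 for Tyrp1, with a standard error of 0.967 for Dct. Kit was at 0.16 and Mitf at -0.0133. The smallest adjusted p was 0.378 for Dct. The 95% interval for Dct ran from -0.76 to 3.36, so these arrays could not resolve a difference of several-fold.

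At 14 days 8.95% of all genes were called higher and 14.6% lower, and 5638 of 14217 had an unadjusted p under 0.05. None of the 7 pigment genes passed limma, and Kit alone had an unadjusted p under 0.05 (1 gene). Dct had a log2 fold change of 1.65 (95% interval -0.41 to 3.71, adjusted p = 0.214), Pmel of 1.47 (-0.59 to 3.53, adjusted p = 0.271) and Tyrp1 of 1.09 (-0.65 to 2.83, adjusted p = 0.333). Tyr was at 1.05, Mlana at 0.98 and Mitf at 0.21. The 2 probesets of Mitf differed when fitted singly in limma. One gave 0.34 (unadjusted p = 0.0372, adjusted p = 0.103) and the other 0.0746 (unadjusted p = 0.65). Group means of Tyr were 5.47 ± 1.09 (SD, n = 6) in naïve skin, 6.16 ± 1.33 (n = 5) at 7 days and 6.52 ± 1.37 (n = 5) at 14 days, so the SDs exceeded the differences between neighbouring groups. For Dct they were 7.10 ± 1.69, 8.40 ± 1.81 and 8.75 ± 1.70. Over the 7 genes the median log2 fold change stood at 0.69 and 1.05 for 7 and 14 days, against -0.0218 and 0.0227 over all genes. Both comparisons used the same naïve arrays. With the sarcomere mean as a covariate all 7 log2 fold changes at 14 days were below 0, from -0.42 to -0.0635, and none passed. With array weights Dct (2.34), Mitf (0.37) and Kit (0.58) passed at 14 days. The same 3 passed without naïve replicates 1 and 2, but those arrays were the highest in Kit and replicate 2 the highest in Dct and Mitf. Leaving them out raises the differences by itself, so those calls give no further support. The shares of all genes called under these settings were not worked out. Other scalings of the arrays moved the split of all calls at 14 days from 1272 higher and 2071 lower to 899 and 2426 or to 1714 and 1837.

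Kit had the smallest adjusted p at 14 days (log2 fold change 0.45 ± 0.197 SE, adjusted p = 0.105). This value turned on the naïve arrays. Without naïve replicate 1 it was 0.56 (adjusted p = 0.0317), without naïve replicate 2 it was 0.56 (adjusted p = 0.0319), and without naïve replicates 4 and 5 together it was 0.17 (adjusted p = 0.478). Mitf passed without naïve replicate 2 (0.33, adjusted p = 0.0419). Kit is also carried by mast cells, where none of 11 measured markers passed at either time in limma. Of all genes, 7.85% and 8.95% were called higher and 2.66% and 14.6% lower at the 2 times. An unadjusted p under 0.05 held for 1 of the 11 at 7 days and none at 14 days. Over all 14217 genes it held for 4190 and 5638. Group means of Mcpt1, Mcpt4, Ms4a2 and Fcer1a were 4.42 to 5.18, near the background median of 4.91, where differences can be compressed. Mean mast cell levels were 5.82 to 6.85 in naïve skin, 5.62 to 6.72 at 7 days and 6.12 to 6.28 at 14 days. Cpa3, the mast cell carboxypeptidase, had a log2 fold change of -0.00480 at 14 days, Tpsb2 (tryptase) one of 0.20 and Cma1 (chymase) one of -0.23. Ms4a2 and Fcer1a, chains of the high-affinity IgE receptor, were at -0.12 and -0.19, and Hdc, which makes histamine, at -0.24. On the naïve arrays highest in Kit, replicates 1 and 2, mast cell means were 6.17 and 6.04. The part of mast cells in the Kit values was not tested.

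Between 14 and 7 days, 8.86% of all genes were higher and 10.1% lower at 14 days, and 5189 of 14217 had an unadjusted p under 0.05. None of the 7 pigment genes passed limma or an unadjusted p under 0.05. The log2 fold changes ran from 0.0716 for Mlana to 0.43 for Tyrp1, and the smallest adjusted p was 0.315, for Kit. The effects at the 2 times were thus not shown to differ, and for Dct the 95% interval of the difference ran from -1.80 to 2.50.

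**Figure D4:**
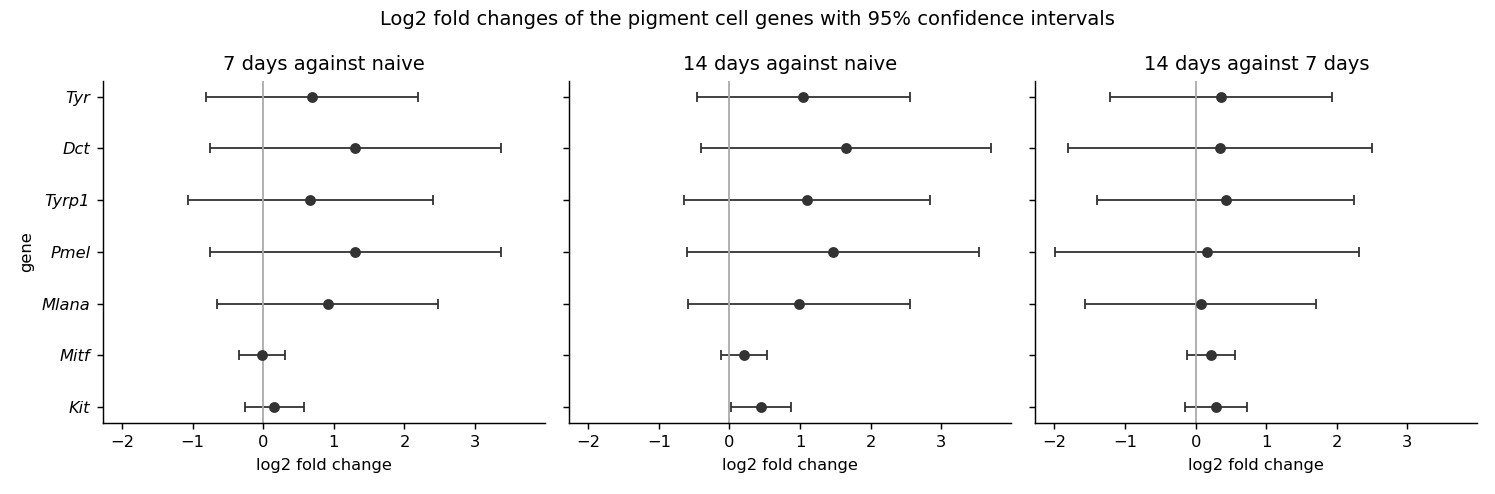
Log2 fold change (horizontal axis) of each pigment cell gene in the 3 comparisons, with 95% confidence intervals from limma. All intervals span 0 except that of Kit at 14 days against naïve (0.0286 to 0.87), whose adjusted p was 0.105.

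Other genes of the melanosome and of its transport were also compared. Of 27 measured genes, 4 rose and none fell at 7 days, where 7.85% of all genes were higher and 2.66% lower. At 14 days 6 rose and 3 fell, where 8.95% of all genes were higher and 14.6% lower. Their median log2 fold change was 0.10 at 7 days and 0.14 at 14 days. Rab32, a GTPase that sorts cargo to melanosomes and related organelles, rose by 1.25 at 7 days (adjusted p = 0.0120, limma) and 1.12 at 14 days (adjusted p = 0.0134). It was at 6.96 to 7.71 and 6.91 to 7.34 at the 2 times against 5.12 to 6.91 in naïve skin. Cd63, a tetraspanin of melanosomes and lysosomes, rose by 0.84 at 7 days (adjusted p = 0.00689) and Ap3b1 and Hps3, of the sorting machinery, by 0.30 and 0.35. Rab32 did not pass at 7 days when the third group was left out of the model, nor at 14 days without naïve replicates 4 and 5, with the replicate block (adjusted p = 0.0502) or with the hair shaft or sarcomere mean as a covariate. Ap3b1 did not pass after a second quantile normalization, without the third group, with either covariate or without naïve replicates 4 and 5. At 7 days Cd63 passed in all of 12 such settings, Rab32 in 11, Ap3b1 in 7 and Hps3 in 4. Of 16 fits that each left out 1 array, Cd63 and Rab32 passed in all, Ap3b1 in 11 and Hps3 in 3 (those without naïve replicate 2, naïve replicate 3 or 7-day replicate 1). Macrophage markers were higher at 7 days in 12 of 15 measured, with mean levels of 8.30 to 8.97 on 4 of the 5 arrays at 7 days, highest on replicate 4, against 6.20 to 8.51 in naïve skin, and their part in these rises was not tested.

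At 14 days Gpnmb, a melanosome and macrophage glycoprotein, rose by 1.62, Slc7a11, the cystine carrier used for pheomelanin, by 1.70, and Myo5a, the motor that carries melanosomes, by 1.26. The copper pump Atp7a rose by 0.55 and the channel Trpm1 by 0.51, while Bloc1s1, Hps6 and Bloc1s5 fell by 0.52, 0.44 and 0.38. In the same 16 fits Bloc1s5 passed in 15, Hps6 in 11, Trpm1 and Bloc1s1 in 9, Gpnmb and Myo5a in 7, Slc7a11 in 6 and Atp7a in 5. Leaving out naïve replicate 4 or 6 ended the calls of all but Bloc1s5 among these 8. The adjusted p was 0.0337 for Gpnmb and Myo5a and 0.0440 for Slc7a11 in limma. Within naïve skin these 3 genes were highest on replicates 1 and 2, the arrays high in hair shaft genes. The same 2 arrays had the lowest beta-actin readings of RNA quality in naïve skin, 0.176 and 0.228, so the 2 traits cannot be told apart there. Myo5a stood at 7.77 and 7.80 on naïve replicates 1 and 2 and at 5.57 to 6.07 on the other 4, and at 7.59 to 7.76 on all arrays at 14 days. No gene of this list passed at 14 days when naïve replicates 4 and 5 were left out, with the replicate block, or with the hair shaft or the sarcomere mean as a covariate. When the model held just the naïve and 14-day arrays 1 rose and 2 fell, whereas 14 rose and 5 fell when naïve replicates 1 and 2 were left out. The shares of all genes called under these settings were not worked out, so these counts describe no trait of this list. Hair shaft genes themselves rose in 10 of 11 at 14 days, in 1 without naïve replicate 4 or without naïve replicate 6, and in none without naïve replicates 4 and 5. Sarcomere genes fell in 12 of 19 at 14 days. The part of both tissues in the calls of the melanosome genes was not tested beyond these covariates, and that of RNA quality was not tested.

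Among melanocyte transcription factors and partners of Mitf, 1 of 11 rose at 7 days, and 1 rose and 1 fell at 14 days, shares near those of all genes given above. The gene called at 7 days was Tfec, a relative of Mitf known from macrophages (adjusted p = 0.00930). Its mean levels of 4.10 in naïve skin and 4.74 at 7 days both lay below 4.91, the median of the genes of other organs, and its call was lost when the 14-day arrays left the model, and also without naïve replicates 4 and 5. Tfap2b fell by 1.09 at 14 days (adjusted p = 0.00549), and did not pass with the hair shaft or sarcomere mean as a covariate. Tfe3, another relative of Mitf, was called higher at 14 days (log2 fold change 0.37, adjusted p = 0.0150). That call was lost with either covariate, with the replicate block (adjusted p = 0.0635) and without naïve replicates 4 and 5, and the sign turned when the probeset of highest mean was used. Sox10, the neural crest factor upstream of Mitf, had log2 fold changes of -0.15 at 7 days and 0.35 at 14 days (adjusted p = 0.0772), and was higher at 14 than at 7 days by 0.50 (adjusted p = 0.0282). That call was lost without 7-day replicate 3 or 4 or 14-day replicate 2 or 5. Sox10 did not follow the pigment genes at 14 days, where it was 7.39, 7.98, 7.23, 7.46 and 8.02 on replicates 1 to 5.

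None of 12 signalling genes that act on pigment cells passed at 7 or 14 days. At those times limma called 7.85% and 8.95% of all genes higher and 2.66% and 14.6% lower. An unadjusted p under 0.05 held for none of the 12 at 7 days and for 4 at 14 days. Over all 14217 genes it held for 4190 and 5638. Kitlg, which encodes the ligand of Kit, had log2 fold changes of 0.22 and 0.27. Asip, the agouti antagonist, was at 0.0480 and 0.18, and Pomc, the precursor of melanocortins, at -0.14 and -0.0439. Levels of Asip were 4.04 to 4.46 on all arrays, below 4.91, the median of the genes of other organs, where differences are compressed. Mc4r and Fgf2, also among the 12, lay below that median on all arrays. Of the transport genes, Rab27a was at 0.19 and -0.0530 and Mlph at -0.16 and 0.14, none of them past the threshold against naïve skin. Mlph was higher at 14 than at 7 days by 0.30 (adjusted p = 0.0356, limma). That call held in 8 of 16 fits that left out 1 array and in 11 of 12 other settings. Pax3, Ednrb, Edn3 and Slc24a5 had no probeset of their own here and were not analysed.

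Outside the 7 genes, Npy, which encodes neuropeptide Y, followed them most closely, with a Pearson correlation of 0.876 over 16 arrays with their mean. Npy was at 8.25 on naïve replicate 2 and 6.24 to 7.21 on the other naïve arrays, at 8.57 and 7.81 on 7-day replicates 3 and 5, and at 7.91, 8.25 and 8.27 on 14-day replicates 1, 2 and 4. The 6 arrays highest in the melanin genes were also the 6 highest in Npy. It was also the closest gene outside the list for Tyr, Dct, Tyrp1 and Pmel singly, with correlations of 0.857 to 0.908.

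Trpm1, a cation channel known from melanocytes, came next (0.816), then Gpr143, the ocular albinism receptor of the melanosome (0.795). Their levels were low, at 4.18 to 5.38 and 4.37 to 5.31, within the range of the genes of other organs. Gpr143 had log2 fold changes of -0.0691 and 0.15 at the 2 times and did not pass. On 7-day replicate 3, one of the highest in the melanin genes, Gpr143 was at 4.49, among the low arrays. The rest of the 10 most alike genes were Dennd1a, Cdk2, Ccdc134, Emc8, Elmod2, Dhx38 and Fbxo7, at 0.788 to 0.746.

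Cdk2 neighbours Pmel on chromosome 7. In RefSeq's GRCr8 annotation it spans 1714392 to 1721964 and Pmel 1721948 to 1733248, so the 2 genes share 17 bases. Cdk2 ranged only from 6.67 to 7.53, against 5.25 to 9.83 for Pmel. For Mitf the gene of highest correlation was Tgfa (0.896), for Kit Pcgf3 (0.965) and, outside the members, for Mlana Xxylt1 (0.803). These correlations rank many genes over 16 arrays and are given as descriptions.

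**Figure D5:**
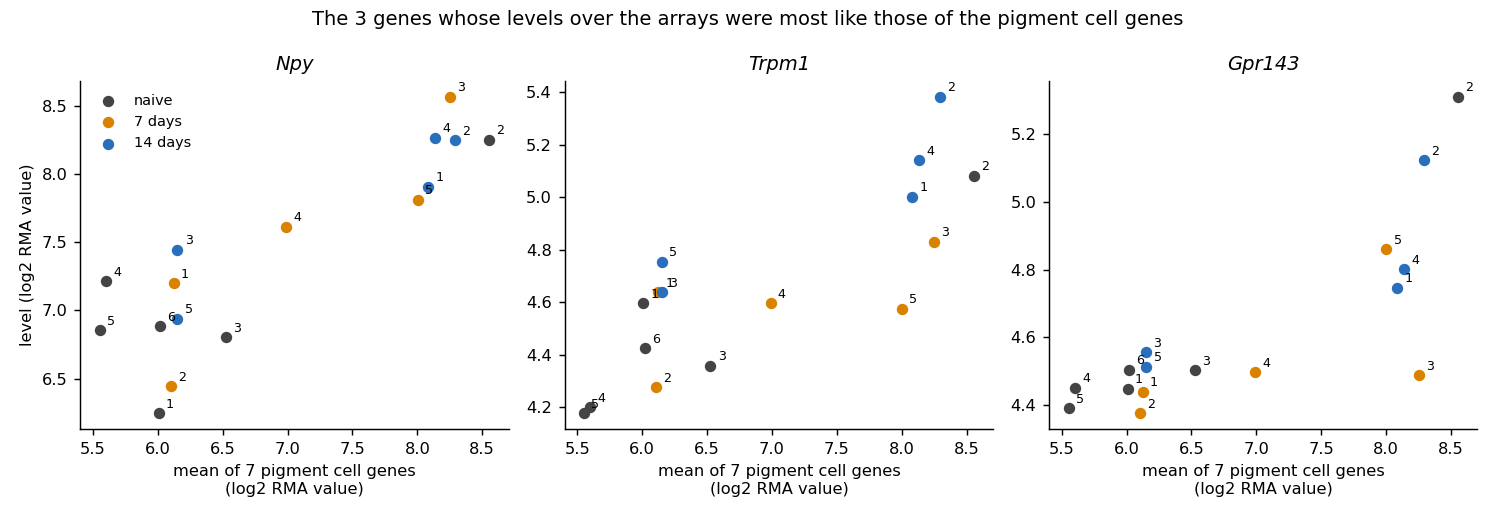
Levels of Npy, Trpm1 and Gpr143 (vertical axes, log2 value) against the mean of the 7 pigment cell genes (horizontal axis, log2 value), with 1 point per array and its replicate number. Npy spans 6.24 to 8.57, whereas Trpm1 and Gpr143 stay between 4.18 and 5.38.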

How the data were processed

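RNA from skin of 16 rats was hybridized to Affymetrix rat expression arrays. The values that the authors deposited for 31099 probesets are on the log2 scale, and per the labels came from RMA (background correction, quantile normalization and summary of probes) and R 3.0.1. RMA puts all arrays on a common distribution, so levels are relative within an array. No version of RMA is given. After removal of 57 control probesets, 9780 with no gene and 436 with several genes, 20826 probesets were collapsed to the median for 14217 genes, as in the authors' methods.

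Groups were compared with limma 3.58.1 in R 4.3.3, with 1 mean per group over all 16 arrays and empirical Bayes moderation, and p-values were adjusted by Benjamini-Hochberg across the 14217 genes. A gene was called at an adjusted p under 0.05. The fit was tested on simulated data. The labels give no batches. With 1 array per rat, p-values measure the spread between rats. The number of arrays limits the precision.

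The members, gene lists and tests were chosen with earlier results of these data known. The text names the 10 members, other pigment genes past the threshold in a comparison with naïve skin, fixed lineage and mast cell genes, and the genes most correlated with the members. The mean of a list is over its measured genes. Alternatives changed the collapse, scaling, dim genes, weights, moderation, arrays in the model, replicate block, hair and sarcomere covariates and thresholds, and each array was left out in turn. Leaving out pairs of naïve arrays was added after the data were seen.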

Additional observations from a re-analysis of the deposited data

Results flagged for a closer look

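Tyr on naïve replicate 2 was at 7.69, far above the other naïve arrays: its distance to the nearest of them was 0.890 of the range over the 6 arrays. Tyrp1 on the same array was at 8.41, with a distance of 0.882 of the range. The genes were selected for a high and a low set of arrays and vary together, so both values are a description with no test.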

How the results depend on the processing

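No pigment gene was called at 7 or 14 days or between the times, and most alternatives kept this. Exceptions arose against naïve skin. Without naïve replicates 1 and 2 together, 1 gene (Kit) was called at 7 days and 3 (Dct, Mitf and Kit) at 14 days. Those arrays were the highest in Kit and replicate 2 the highest in Dct and Mitf, so their removal raises these differences by itself. With array weights 3 genes (Dct, Mitf and Kit) were called at 14 days, and leaving out single arrays gave 0 to 2. At 14 against 7 days no alternative called a gene. With the replicate block, 0 genes were called in each comparison (smallest adjusted p 0.142, at 14 days against naïve). Each array came from a different rat and the labels name no pairs, so equal replicate numbers were not taken as pairing. Same-numbered arrays had deviations correlated at -0.552 to 0.583. These were not compared with differently numbered arrays and cannot show whether pairing exists. Under the block the other melanosome genes called at 14 days went from 6 higher and 3 lower to 0 and 0. Sign changes, none past the threshold, were as follows. With the hair shaft mean as a covariate, Tyrp1 was at -0.035 and Kit at -0.20 at 7 days, Tyrp1 at -0.035, Mitf at -0.198 and Kit at -0.128 at 14 days, and Tyr at -0.0148, Dct at -0.219, Pmel at -0.253 and Mlana at -0.132 between the times. With the sarcomere mean, Kit was at -0.0698 at 7 days; at 14 days Tyr was at -0.178, Dct at -0.173, Tyrp1 at -0.416, Pmel at -0.0924, Mlana at -0.0635, Mitf at -0.215 and Kit at -0.0842; between the times these were -0.340, -0.694, -0.436, -0.725, -0.526, -0.0201 and -0.0144. Mitf at 7 days was 0.0381 from its brighter probeset, 0.168 with array weights and 0.195 without naïve replicates 1 and 2, and Kit was -0.121 without naïve replicates 4 and 5. With 1 array left out, Mitf at 7 days ran from -0.0844 to 0.111, and between the times Dct ran from -0.161 to 0.837, Pmel from -0.249 to 0.714 and Mlana from -0.271 to 0.423. The cause was not tested. After rescaling, the median log2 fold change of all genes was -0.0383 to 0.0203. Tyr, Tyrp1, Trpm1, Gpr143 and Tfec lie near the background level on the low arrays, where differences are compressed. Mlana on naïve replicates 1 and 5 (5.06 and 4.92) and Kit on naïve replicates 4 and 5 (5.09 and 5.01) were also near it. All levels of Kit lay within the range of the genes of other organs. Those of Asip, Mc4r and Fgf2 lay below the median of the genes of other organs, 4.91.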
